A study of Rattus norvegicus with 24 samples.

Results

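The miR-375 and miR-7 families are represented by 6 of the 758 rat miRs on the array, chosen by name alone as every miR-375, miR-7a or miR-7b probe set, guide and passenger arms included. They are miR-375-3p, miR-375-5p, miR-7a-5p, miR-7b, miR-7a-1-3p and miR-7a-2-3p, listed there with the rat prefix (as in rno-miR-7a-2-3p). INS1 cells, a rat insulinoma-derived β-cell line, were preincubated for 48 h and profiled on 24 single-colour arrays with 3 replicates in each of 8 groups. Cells of the 6h_Ctrl and 24h_Ctrl groups received neither Givinostat nor cytokines. The 6h_Cyt and 24h_Cyt groups received cytokines over their 6 h or 24 h, IFN-γ at 0.1 ng/ml together with IL-1β at 150 pg/ml. The 6h_Giv_Ctrl and 24h_Giv_Ctrl groups received 125 nM Givinostat, a broad inhibitor of lysine deacetylases, without cytokines. The 6h_Giv_Cyt and 24h_Giv_Cyt groups received Givinostat 1 h before the same cytokines. The deposited design describes the replicates as technical, so the p-values below may measure technical spread only. A cell line grown alone also lacks the other endocrine and immune cells of an inflamed islet. The comparisons ask which miRs respond to the cytokines and whether Givinostat alters that response.

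miR-375 is among the most abundant miRs of the pancreatic islet. Its guide arm, the 3p strand, restrains glucose-stimulated insulin secretion, in part through the mRNA of myotrophin, and is needed for a normal β-cell mass. miR-7 is enriched in endocrine and neuronal cells, and its 5p guide likewise restrains insulin secretion. A miR hairpin is cut into a duplex, of which the guide strand is loaded into the silencing complex through its seed, whereas the passenger strand is usually degraded and therefore scarce.

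The mature sequences, from the RefSeq rat table, are shown with the seed (bases 2 to 8) in capitals, because members can share a seed and the probes described below pair with parts of them.
miR-375-3p: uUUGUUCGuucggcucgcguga
miR-375-5p: gCGACGAGccccucgcacaaacc
miR-7a-5p: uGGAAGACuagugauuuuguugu
miR-7b: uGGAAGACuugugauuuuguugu
miR-7a-1-3p: aCAACAAAucacagucugccau
miR-7a-2-3p: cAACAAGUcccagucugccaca

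miR-7a-5p and miR-7b shared their seed and differed at a single base, A10U counted from the 5′ end of miR-7a-5p. miR-7a-5p is made by 2 hairpins, whereas the passengers miR-7a-1-3p and miR-7a-2-3p each report on 1 of them and carry different seeds. Among the 685 array miRs with a RefSeq sequence, miR-3065-5p was the only non-member that shared a seed with a member, miR-7a-1-3p. In the rn4 positions of the array files, the miR-375-3p probes matched chr9:74233551-74233564 and the miR-375-5p probes chr9:74233518-74233530, on the minus strand. The miR-7a-2-3p probes matched chr1:134607328-134607341 and those of miR-7a-1-3p chr17:12204144-12204162, on the plus strand. miR-7a-5p matched both miR-7 hairpin loci, at chr1:134607283-134607304 and chr17:12204101-12204122, and miR-7b carried no position. In the GRCr8 RefSeq gene table, Mir375 lay within the span of Cryba2, a lens crystallin gene, with Fev, a serotonergic and endocrine transcription factor gene, as a neighbour. Mir7-1, the hairpin of miR-7a-1-3p, lay within Hnrnpk, which encodes an RNA-binding protein. The hairpin of miR-7a-2-3p lay within a long non-coding RNA between Det1 and Aen, and that of miR-7b lay between Dpp9 and Fem1a.

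Each miR was read by 16 spots. Where 8 or more of them carried the scanner's mark, the miR counted as well above background there. By this rule both guides miR-375-3p and miR-7a-5p and the passenger miR-7a-2-3p were well above background on 24 of 24 arrays. miR-375-5p reached this level on 9 arrays, miR-7b on 2 and miR-7a-1-3p on 1. Across the array, 117 miRs were well above background on all 24 arrays and 534 on none. Markers of other cell types (acinar, liver, muscle, blood, endothelial and mesenchymal) were mostly not well above background, with 13 of 16 well above background on no array, miR-1-3p on 3 arrays, miR-126a-3p on 2 and the muscle miR-206-3p on all 24. Both guide strands that mark endocrine cells were therefore detected throughout, beside 1 marker of another cell type.

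Arrays differed in brightness before normalization. The 75th percentile of the processed intensity over the 117 detected miRs was 596 to 1003 on the 24h_Cyt arrays, 271 to 347 on the 24h_Ctrl arrays and 487 to 571 on the 24h_Giv_Cyt arrays. The arrays lay on 4 slides, and the 24h_Cyt arrays shared no slide with the 24h_Ctrl or the 24h_Giv_Cyt arrays, so slide and group cannot be told apart within a slide for those comparisons. Slide 1 held only 24h_Cyt replicates 1 and 2 and 6h_Giv_Ctrl replicate 1. These were the brightest arrays, with a 75th percentile of 1003, 742 and 682. The arrays 6h_Giv_Ctrl replicate 1 and 6h_Giv_Cyt replicate 3 correlated less with their own replicates (r of 0.958 to 0.978) than those replicates did with each other (0.998 and 0.997). All log2 values and log2FC below are quantile-normalised unless stated, so they are relative to the other miRs on the array. In values without normalization between arrays, more RNA per cell cannot be told from more cells.

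**Figure D1:**
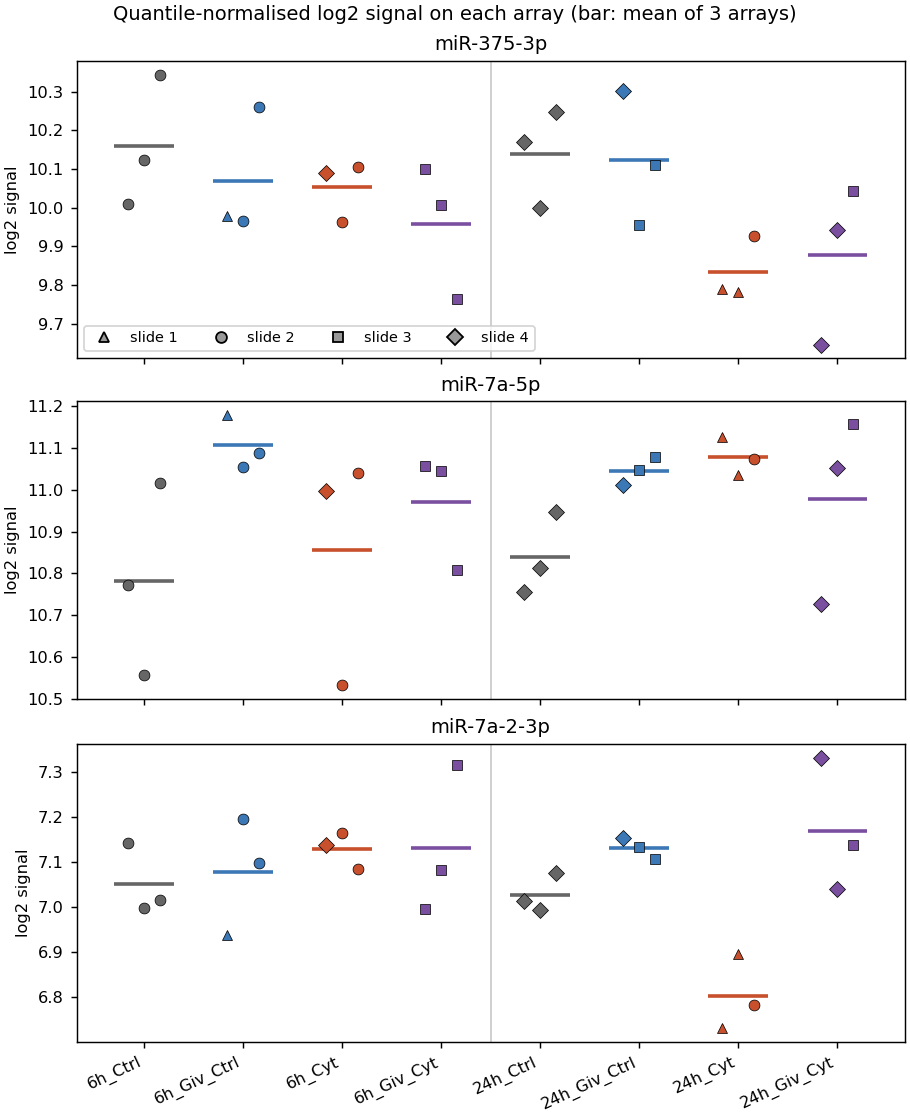
Quantile-normalised log2 signal (y axis, 1 panel per miR with its own range) of miR-375-3p, miR-7a-5p and miR-7a-2-3p on each of the 24 arrays by group (x axis), with the marker shape giving the slide and the bar the mean of 3 arrays. The 3 24h_Cyt arrays lie below the 3 24h_Ctrl arrays for miR-375-3p and miR-7a-2-3p and above them for miR-7a-5p; without normalization between arrays the first pair of differences turned positive, and with the processed signal scaled over all miRs that of miR-7a-5p was −0.011.

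The group means of the passenger miR-7a-2-3p spanned 0.37 on the log2 scale, from 24h_Cyt, the lowest, to 24h_Giv_Cyt, the highest. The study itself picked it from these arrays, so its array tests are not independent evidence of its direction. By qRT-PCR on similarly treated cells, the study reports a fall after the longer cytokine exposure, which Givinostat prevented. Those measurements are not part of the data analysed here. The log2 signal of miR-7a-2-3p was 7.01, 6.99 and 7.08 on the 24h_Ctrl arrays (7.03 ± 0.04, SD, n = 3). With cytokines for 24 h it was 6.73, 6.90 and 6.78 (6.80 ± 0.08, n = 3). All 24h_Cyt arrays were below all 24h_Ctrl arrays, while the difference of the means turned positive without normalization between arrays (0.58). With Givinostat before the cytokines it was 7.33, 7.04 and 7.14 (7.17 ± 0.15, n = 3), and with Givinostat alone 7.15, 7.13 and 7.11 (7.13 ± 0.02, n = 3). Every 24h_Giv_Cyt array was thus above every 24h_Cyt array, and the range of the 24h_Giv_Cyt arrays enclosed that of the 24h_Giv_Ctrl arrays.

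In the 24h_Cyt vs 24h_Ctrl comparison the log2FC of miR-7a-2-3p was −0.22 (a fold of 0.856, SE 0.08, 95% interval −0.39 to −0.055) and did not pass the test (limma adjusted p = 0.104). A call required an adjusted p under 0.05 over the 758 miRs and an absolute log2FC above 0.1375, a fold of 1.1. None of the 6 members was called there, against 31 of 758 miRs, or 4.09%, and 3 members had an unadjusted p under 0.05, against 23.7%. When the 16 spots entered the fit separately with a pooled correlation, as the study's methods describe, 1 member was called, miR-7a-2-3p (limma adjusted p = 0.0089), against 6.33% of all miRs. The groups did not overlap for 4 of 6 members (miR-375-3p, miR-7a-5p, miR-7a-1-3p and miR-7a-2-3p), against 36.7% of all miRs.

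In the 24h_Giv_Cyt vs 24h_Cyt comparison miR-7a-2-3p had a log2FC of 0.37 (a fold of 1.29, SE 0.08, 95% interval 0.20 to 0.54), the third smallest p of the array, with limma adjusted p = 0.0626. No member was called, where 0.132% of miRs were, 1 had an unadjusted p under 0.05, where 5.01% did, and 1 was called with pooled spots (miR-7a-2-3p, limma adjusted p = 6.71e-06), where 3.17% were. The groups did not overlap for 2 members, miR-7a-2-3p and miR-7a-1-3p, against 16.6% of all miRs. Leaving out 1 at a time of 8 arrays gave a log2FC of 0.29 to 0.43, with a limma adjusted p of 0.0226 to 0.50. The 8 were the arrays compared, 6h_Giv_Ctrl replicate 1 and 6h_Giv_Cyt replicate 3, and values without any other array are not given. Among these, the call was gained without 24h_Giv_Cyt replicate 2 (limma adjusted p = 0.0388), without 6h_Giv_Ctrl replicate 1 (0.0387) or without 6h_Giv_Cyt replicate 3 (0.0226). The 6h_Giv_Ctrl and 6h_Giv_Cyt arrays are not in this comparison and enter only the shared spread.
In 24h_Giv_Cyt vs 24h_Giv_Ctrl its log2FC was 0.039 (SE 0.08, limma adjusted p = 0.830, 0 members called, 0 at an unadjusted p under 0.05 and 0 with pooled spots, against 0.528%, 12.3% and 5.67% of all miRs). The Givinostat effect with cytokines minus that without them was 0.26 at 24 h (SE 0.11, limma adjusted p = 0.871, −0.031 without normalization between arrays, 0 of 6 members and 0% of miRs called). There 1 member, miR-7a-2-3p, and 5.15% of miRs had an unadjusted p under 0.05, and 0 members and 2.9% of miRs were called with pooled spots.

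At 6 h miR-7a-2-3p was 7.14, 6.997 and 7.02 in 6h_Ctrl and 7.14, 7.17 and 7.08 in 6h_Cyt. These groups overlapped, and the 4 treatment comparisons at 6 h gave log2FC of 0.0027 to 0.077. On 6h_Giv_Ctrl replicate 1, which had no cytokines, miR-7a-2-3p was 6.94, its lowest value outside 24h_Cyt. That array lay on slide 1 with 24h_Cyt replicates 1 and 2, and the part of the slide in this value was not tested. The 24h_Cyt vs 6h_Cyt log2FC was −0.33 (SE 0.08, limma adjusted p = 0.0639, without overlap of the groups, and 0.29 without normalization between arrays), with 0 members called against 0.792% of all miRs and 1 with pooled spots (limma adjusted p = 4.17e-05) against 2.37%. It was the 1 member at an unadjusted p under 0.05, against 13.7% of miRs, and with miR-375-3p 1 of 2 members without overlap, against 21.8%. That call was also gained without 6h_Giv_Ctrl replicate 1 (limma adjusted p = 0.0418) or without 6h_Giv_Cyt replicate 3 (0.0234), arrays outside the compared groups. With 1 left out at a time of 8 arrays, those compared and these 2, limma's adjusted p ran from 0.0234 to 0.273. Values without any other array are not given. Slide 2 held 1 24h_Cyt and 2 6h_Cyt arrays, which differed by −0.34. The cytokine effect at 24 h minus that at 6 h was −0.30 (SE 0.11, and 0.36 without normalization between arrays) and did not pass with array means (limma adjusted p = 0.389, 0.528% of miRs called and 9.37% at an unadjusted p under 0.05), whereas it passed with pooled spots (limma adjusted p = 0.0402, 2.77% called).

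Over all groups miR-7a-2-3p was highest in 24h_Giv_Cyt (7.17 ± 0.15), followed by 6h_Giv_Cyt (7.13 ± 0.17), 24h_Giv_Ctrl (7.13 ± 0.02) and 6h_Cyt (7.13 ± 0.04). Then came 6h_Giv_Ctrl (7.08 ± 0.13), 6h_Ctrl (7.05 ± 0.08), 24h_Ctrl (7.03 ± 0.04) and 24h_Cyt (6.80 ± 0.08). Only the last step, of 0.22, was larger than the pooled SD of 0.10, and the other neighbours in this order did not differ beyond their spread.

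**Figure D2:**
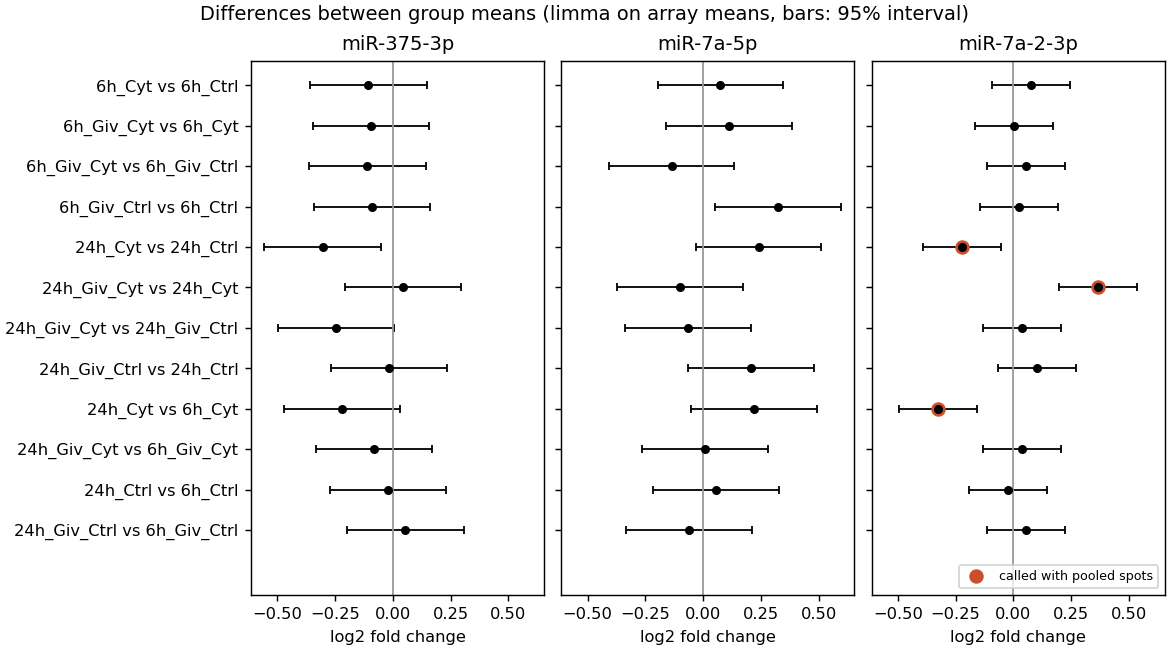
log2FC (x axis) with 95% intervals for the 12 pairwise comparisons (y axis) of miR-375-3p, miR-7a-5p and miR-7a-2-3p from the fit to array means. None was called in that fit, and the larger red points mark the 3 comparisons of miR-7a-2-3p that were called with pooled spots. Without normalization between arrays the 24h_Cyt vs 24h_Ctrl and 24h_Cyt vs 6h_Cyt differences of miR-7a-2-3p and miR-375-3p turned positive.

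The guide miR-375-3p had a log2 signal of 10.17, 9.999 and 10.25 on the 24h_Ctrl arrays (10.14 ± 0.13, SD, n = 3) and of 9.79, 9.78 and 9.93 on the 24h_Cyt arrays (9.83 ± 0.08, n = 3). All 24h_Cyt arrays were again below all 24h_Ctrl arrays, and this difference too turned positive without normalization between arrays (0.65). The log2FC was −0.30 (a fold of 0.81, SE 0.12, 95% interval −0.56 to −0.053) and did not pass the test (limma adjusted p = 0.131). With pooled spots, where both probes enter the spread, the SE was 0.33 and limma's adjusted p was 0.596. Its values in 24h_Giv_Cyt, at 9.65, 9.94 and 10.04 (9.88 ± 0.21, n = 3), overlapped those in 24h_Cyt. The 24h_Giv_Cyt vs 24h_Cyt log2FC was 0.044 (SE 0.12, 95% interval −0.21 to 0.30, limma adjusted p = 0.971), and it became −0.039 without 24h_Giv_Cyt replicate 3.
With Givinostat alone it was 10.30, 9.96 and 10.11 (10.12 ± 0.17, n = 3). The 24h_Giv_Cyt vs 24h_Giv_Ctrl log2FC was −0.25 (SE 0.12, limma adjusted p = 0.423), and the 24h_Cyt vs 6h_Cyt log2FC was −0.22 (SE 0.12, limma adjusted p = 0.463). The former was −0.13 without 24h_Giv_Cyt replicate 1 and −0.16 without 24h_Giv_Ctrl replicate 1. Within slides it was 0.0097 on slide 3 (1 24h_Giv_Cyt array against 2) and −0.51 on slide 4 (2 against 1). The latter was −0.11 within slide 2 (1 24h_Cyt array against 2) and −0.016 with brightness as a covariate. Without normalization between arrays they turned to 0.16 and 0.57, where the medians of the 117 detected miRs were 0.43 and 0.69. Its highest group was 6h_Ctrl (10.16 ± 0.17), followed by 24h_Ctrl, 24h_Giv_Ctrl, 6h_Giv_Ctrl (10.07 ± 0.17), 6h_Cyt (10.05 ± 0.08), 6h_Giv_Cyt (9.96 ± 0.17), 24h_Giv_Cyt and 24h_Cyt. No step between neighbours exceeded the pooled SD of 0.15. At 6 h its 4 treatment comparisons gave −0.11 to −0.09.

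The guide miR-7a-5p had a log2 signal of 10.76, 10.81 and 10.95 on the 24h_Ctrl arrays (10.84 ± 0.10, SD, n = 3) and of 11.13, 11.04 and 11.07 on the 24h_Cyt arrays (11.08 ± 0.04, n = 3), above all 24h_Ctrl arrays. The 24h_Cyt vs 24h_Ctrl log2FC was 0.24 (SE 0.13, limma adjusted p = 0.271, and 0.764 with pooled spots), and it was −0.011 with the processed signal scaled over all miRs. With Givinostat alone it was 11.01, 11.05 and 11.08 (11.05 ± 0.03, n = 3), also above all 24h_Ctrl arrays, with a log2FC of 0.21 (SE 0.13, limma adjusted p = 0.992). In that comparison limma called 0 members at an adjusted p under 0.05, 0 had an unadjusted p under 0.05 and 0 were called with pooled spots, against 0%, 4.22% and 0.396% of all miRs. The groups did not overlap for 2 members, miR-7a-5p and miR-7a-2-3p, against 10.2% of all miRs.
With Givinostat and cytokines miR-7a-5p was 10.73, 11.05 and 11.16 (10.98 ± 0.23, n = 3), which enclosed the 24h_Cyt values. The 24h_Giv_Cyt vs 24h_Cyt log2FC was −0.10 (SE 0.13, limma adjusted p = 0.967) and became 0.027 without 24h_Giv_Cyt replicate 1. At 6 h the 6h_Giv_Ctrl arrays (11.18, 11.05 and 11.09) were above the 6h_Ctrl arrays (10.77, 10.56 and 11.02), with a log2FC of 0.33 (SE 0.13, limma adjusted p = 0.963). It was 0.29 within slide 2 (2 arrays against 3), 0.21 without 6h_Ctrl replicate 2, 0.040 without outlier spots, and turned to between −0.23 and −0.19 when the processed or total signal was scaled instead. Its 21-base probe differed by 0.22, without overlap, and its 22-base probe, whose limits are given below, by 0.43, with overlap. No member or other miR was called in that comparison, with 1 member and 4.49% of miRs at an unadjusted p under 0.05 and 0 members and 0.66% called with pooled spots. The groups did not overlap for 1 member, miR-7a-5p, against 4.35% of miRs.
The highest group was 6h_Giv_Ctrl (11.11 ± 0.06), then 24h_Cyt, 24h_Giv_Ctrl, 24h_Giv_Cyt, 6h_Giv_Cyt (10.97 ± 0.14), 6h_Cyt (10.86 ± 0.28), 24h_Ctrl and 6h_Ctrl (10.78 ± 0.23), with no step above the pooled SD of 0.17.

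The remaining 7 contrasts held no call among the members by limma at an adjusted p under 0.05, by pooled spots or at an unadjusted p under 0.05. Among all miRs, 24h_Giv_Cyt vs 6h_Giv_Cyt had 0.396% called (1.85% with pooled spots and 8.84% at an unadjusted p under 0.05). The other 6 had 0% called. With pooled spots the calls were 0.264% for 6h_Cyt vs 6h_Ctrl, 0.66% in 24h_Ctrl vs 6h_Ctrl, 2.77% for 6h_Giv_Cyt vs 6h_Cyt, 0% for 6h_Giv_Cyt vs 6h_Giv_Ctrl, 0.264% in 24h_Giv_Ctrl vs 6h_Giv_Ctrl and 0.132% for the interaction of Givinostat with cytokines at 6 h. At an unadjusted p under 0.05 the shares were, in the same order, 3.96%, 5.15%, 3.17%, 3.43%, 3.96% and 1.58%.

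Since miR-7a-2-3p and miR-7a-5p are arms of the same hairpin, with miR-7a-5p also made elsewhere, the change of their within-array difference was computed. The log2 signal of miR-7a-2-3p minus that of miR-7a-5p differed by −0.46 between 24h_Cyt and 24h_Ctrl, and by −0.76 without normalization between arrays. These signals include background, which weighs more on the dimmer passenger. The mean background-subtracted (processed) intensity in 24h_Cyt and 24h_Ctrl was 113 and 59.6 for miR-7a-2-3p, and 4192 and 1656 for miR-7a-5p. The difference between the arms was higher by 0.47 in 24h_Giv_Cyt than in 24h_Cyt, and by 0.26 without 24h_Giv_Cyt replicate 1. An exact two-sided permutation test gave p = 0.1 for each, the smallest p that 3 against 3 arrays allow. Across the 24 arrays the signals of the arms had r = −0.34, and miR-375-3p had r = −0.035 with miR-7a-2-3p and 0.11 with miR-7a-5p, which is a description over arrays that share groups and slides.

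The members' signals were made of 2 or 4 probe sequences of different length. The probes of miR-7a-2-3p, tgtggcagactggg and tgtggcagactggga, pair with bases 9 to 22 and 8 to 22 of the mature sequence above. They read its 3′ part, and of the seed only the last base, base 8, is reached, by the 15-base probe. Both had lower means in 24h_Cyt than in 24h_Ctrl, the differences being −0.11 for the 14-base probe, where the groups overlapped, and −0.33 for the 15-base probe, where they did not. In 24h_Giv_Cyt vs 24h_Cyt they differed by 0.28 and 0.45, without overlap for either probe. For miR-375-3p the 24h_Cyt vs 24h_Ctrl difference was −0.45 with the 14-base probe, without overlap, and −0.16 with the 15-base probe, with overlap.
For miR-7a-5p the 21-base probe gave 0.33, without overlap, and the 22-base probe 0.15, with overlap. The 8 spots of this 22-base probe were the 8 brightest of 12128 miR spots on 17 of 24 arrays, among them 3 of 3 24h_Cyt arrays and 1 of 3 24h_Ctrl arrays. Quantile normalization gives the brightest spots of every array the same values, so this probe could not show a further rise there. The 22-base probe had a mean of 12.75 in 24h_Cyt and 12.60 in 24h_Ctrl. Its normalised value followed its rank on the array, also where the intensity did not. In 6h_Ctrl it was 11.84 on replicate 2 (processed intensity 3370) and 12.75 on replicate 3 (2693). In 24h_Giv_Cyt it was 12.14 on replicate 1 (4974) and 12.75 on replicate 3 (4752). No miR spot was saturated.

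**Figure D3:**
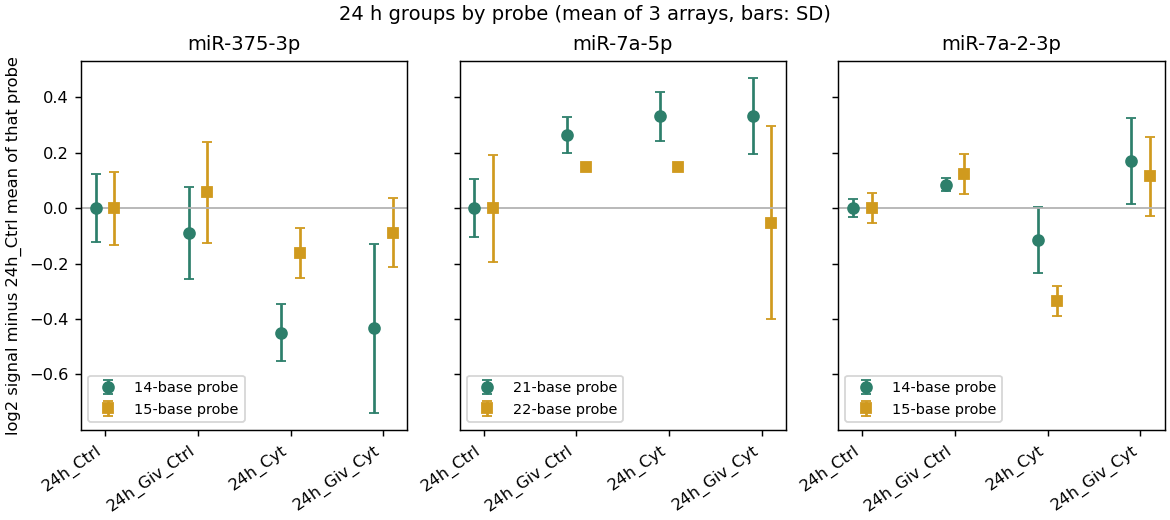
Mean log2 signal of each probe sequence in the 24 h groups minus that probe's mean in 24h_Ctrl (y axis), for 3 arrays per group with bars for the SD. The probes of miR-7a-2-3p are both lowest in 24h_Cyt, those of miR-375-3p differ in size (−0.45 and −0.16 in 24h_Cyt), and the 22-base miR-7a-5p probe has almost no spread in 24h_Giv_Ctrl and 24h_Cyt; these are quantile-normalised values, and without normalization between arrays the 24h_Cyt differences of miR-375-3p and miR-7a-2-3p turned positive.

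The 24h_Cyt arrays were brighter, and the direction of the cytokine comparison depended on scaling. Before normalization the mean processed intensity was 113 in 24h_Cyt and 59.6 in 24h_Ctrl for miR-7a-2-3p, 2071 and 1259 for miR-375-3p, and 4192 and 1656 for miR-7a-5p. Without normalization between arrays, the 24h_Cyt vs 24h_Ctrl log2FC was 0.58 for miR-7a-2-3p, 0.65 for miR-375-3p and 1.34 for miR-7a-5p, where the median of the 117 detected miRs was 0.83. Relative to that median the first pair remained below and miR-7a-5p above it. These unnormalised signals include background, which weighs more on the dim miR-7a-2-3p, so its place below the median is uncertain. In 24h_Giv_Cyt vs 24h_Cyt the unnormalised log2FC of miR-7a-2-3p was 0.23, where the median was −0.29.
With array brightness as a covariate the 24h_Cyt vs 24h_Ctrl log2FC became −0.11 for miR-7a-2-3p (limma adjusted p = 0.665), −0.037 for miR-375-3p and 0.18 for miR-7a-5p. With slide as a fixed block they were −0.15, −0.16 and 0.41. The 24h_Giv_Cyt vs 24h_Cyt log2FC of miR-7a-2-3p was 0.32 with the covariate and 0.31 with the slide block (limma adjusted p = 0.357 and 0.998). The part of brightness and slide in these differences was not tested further.

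**Figure D4:**
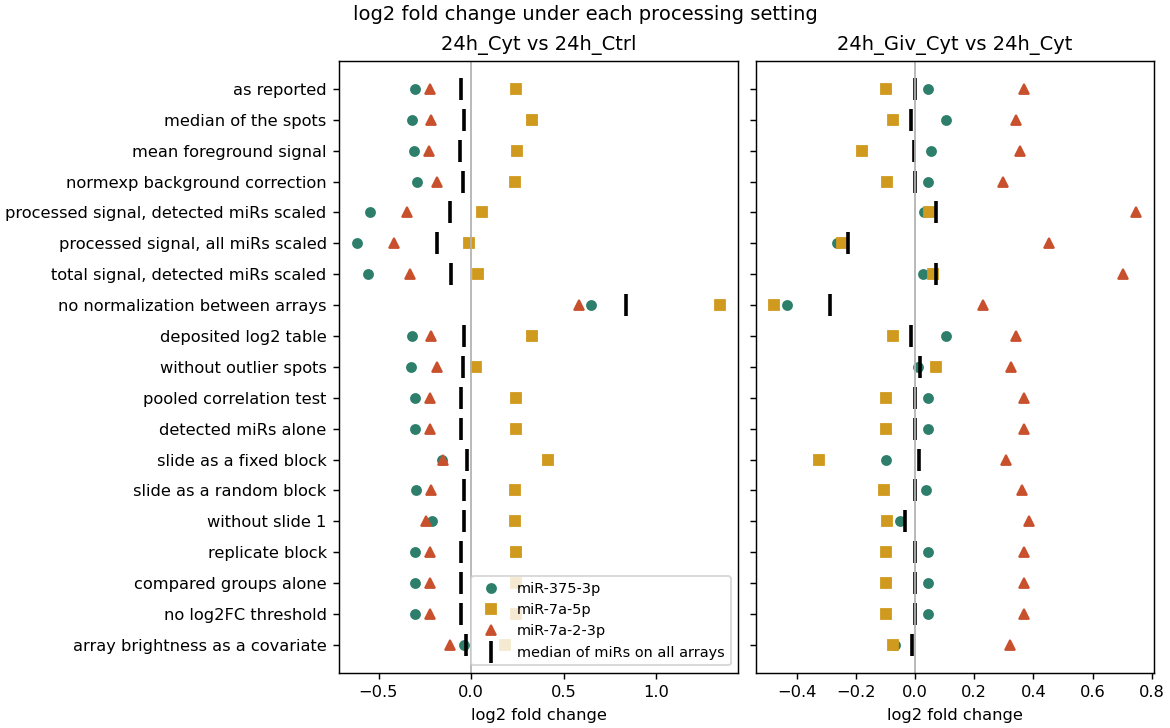
log2FC (x axis) of miR-375-3p, miR-7a-5p and miR-7a-2-3p in 24h_Cyt vs 24h_Ctrl (left) and 24h_Giv_Cyt vs 24h_Cyt (right) under each processing setting (y axis), with the black mark giving the median of the 117 miRs detected on all arrays. miR-7a-2-3p was above 0 in the right panel under every setting shown (0.23 to 0.75) and below 0 in the left panel except without normalization between arrays (0.58).

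The other 3 members were too dim for more than a bound. The scanner's marks on these probe sets increased with probe length. Of the miR-375-5p spots, 14 of 192 were marked with the 13-base probe and 99 of 192 with the 14-base probe. For miR-7a-1-3p, 0 of 96 spots were marked with the 16-base and the 17-base probe, 11 with the 18-base and 62 with the 19-base probe. For miR-7b, 0 of 96 were marked with the 20-base and the 21-base probe, 12 with the 22-base and 84 with the 23-base probe. The miR-7b probes differ from a match to the bright miR-7a-5p at a single base, so their signal cannot be told from cross-hybridization.
Over the 12 comparisons the log2FC was −0.01 to 0.10 for miR-375-5p, −0.05 to 0.08 for miR-7a-1-3p and −0.06 to 0.03 for miR-7b, and none was called. miR-7a-1-3p was above all 24h_Ctrl arrays on all 24h_Cyt arrays (log2FC 0.08, limma adjusted p = 0.137) while it was well above background on 1 of these 6 arrays. A change of this Hnrnpk-hosted passenger was not detectable at this signal.

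**Figure D5:**
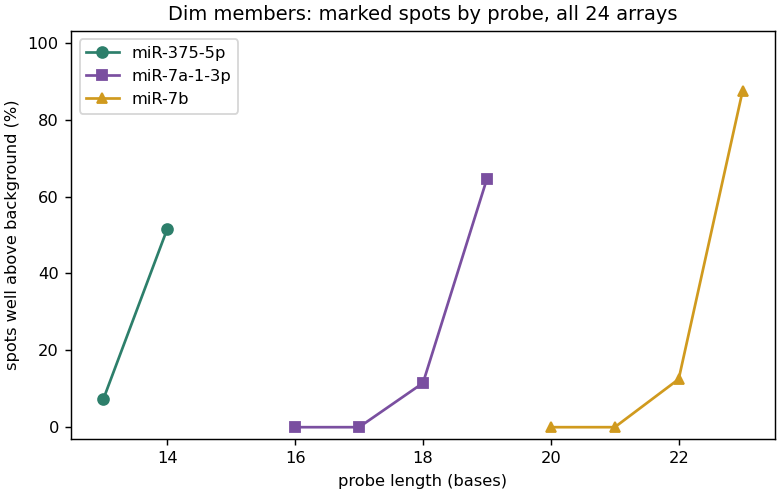
Share of spots that the scanner marked as well above background (y axis, %) by probe length in bases (x axis) for miR-375-5p, miR-7a-1-3p and miR-7b, over all 24 arrays. In each the longest probe was marked most often (51.6%, 64.6% and 87.5%) and the shortest rarely or never (7.3%, 0% and 0%).

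Compared with the 117 miRs detected on all arrays, the range of the group means was 0.33 for miR-375-3p, 0.33 for miR-7a-5p and 0.37 for miR-7a-2-3p, against a median of 0.31. The SD within groups was 0.15, 0.17 and 0.10, against a median of 0.18. Over the 24 arrays, the miRs most like miR-375-3p were miR-6216 (Pearson r = 0.80), miR-483-3p (0.76) and miR-129-5p (0.73). Those most like miR-7a-2-3p were miR-298-3p (0.65), miR-568 (0.63) and miR-702-3p (0.63), and those most like miR-7a-5p were miR-129-1-3p (0.64), miR-26a-5p (0.61) and miR-27b-3p (0.61). These were the highest of 116 candidates each and carry no p.

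Among 25 other miRs known from islets, 16 were well above background on all arrays and 6 on none. In 24h_Cyt vs 24h_Ctrl 5 rose and 2 fell, against 2.64% and 1.45% of all miRs. With pooled spots 4 rose and 1 fell, against 6.33% of all miRs called in either direction. The median log2FC over the 25 was 0.08, against −0.01 for all miRs and −0.055 for the 117 detected miRs. Across the array, 534 of 758 miRs were never well above background. With dim miRs left out of the fit 29 miRs were called, against 31. Shares of all miRs, here and below, therefore do not show an enrichment of the list. miR-29b-3p (log2FC 1.05, limma adjusted p = 0.000533), miR-29a-3p (0.76, 0.00537) and miR-29c-3p (0.72, 0.0284), which share a family known to dampen insulin secretion, rose, as did miR-96-5p (0.71, 0.00912). The study picked miR-29c-3p and miR-96-5p on these arrays too, so their direction on the arrays is not independent evidence. By qRT-PCR, outside the data analysed here, the study reports that both rose after the longer cytokine exposures. On the arrays the 3 miR-29 members and miR-96-5p kept their sign under 18 of 18 settings. They were not called with slide as a fixed block, without slide 1, with brightness as a covariate or with the processed signal scaled over all miRs, nor was miR-29c-3p with slide as a random block. miR-129-5p fell (−0.89, limma adjusted p = 0.000533, but 0.045 without normalization between arrays), and this call was lost with slide as a fixed block and without slide 1. It was also lower with cytokines in the presence of Givinostat (−0.71, limma adjusted p = 0.00842), the only 1 of the 25 called there, where 0.264% of all miRs fell. That call was lost with the processed signal scaled over all miRs, without normalization between arrays and with the compared groups alone, and the log2FC ranged from −1.23 to −0.24 over the settings. In 24h_Giv_Cyt vs 24h_Cyt none of the 25 was called by limma on array means, with 3 at an unadjusted p under 0.05 and 2 called with pooled spots, against 0.132%, 5.01% and 3.17% of all miRs.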

How the data were processed

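RNA enriched for miRs from 24 samples of INS1 cells was hybridised to Agilent rat miRNA arrays. Per the file headers, the authors extracted spot intensities with Agilent Feature Extraction 10.7.3.1 (the submitters' processing notes name 9.1), and probes carry rn4 positions. The deposited scanner intensities are linear and not normalized between arrays. The authors also deposited log2 values per miR, which equal the median of the 16 spots after the steps below (largest difference 4.94e-09).

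Here the median foreground intensity without background correction was taken, 434 negative and 281 positive control spots were removed, and the 12128 remaining spots were quantile-normalised, log2-transformed and averaged per miR. limma 3.58.1 (R 4.3.3) fitted a mean for each of the 8 groups over 24 arrays, with Benjamini-Hochberg adjustment over 758 miRs in each of 12 comparisons and 3 interaction terms. Calls needed an adjusted p under 0.05 and an absolute log2FC above 0.1375. Arrays were used as replicates because the spots of 1 array are repeat measurements, and the study's pooled spot correlation was run as an alternative. Single values were compared with an exact permutation test, whose smallest p is 0.1 for 3 against 3. The number of arrays limits the precision. The scripts were tested on simulated data. Alternatives covered the spot summary, background correction, signal and scaling, normalization, dim miRs, slide, brightness, replicate block, groups in the fit, outlier spots and each array left out. No label ties replicate numbers between groups. The deviations of same-number arrays correlated at 0.665, 0.733 and 0.360 for 24h_Cyt and 24h_Ctrl. The other 7 treatment comparisons each had at least 1 correlation under 0.1, and their values ran from −0.91 to 0.97. The correlations of 24h_Cyt and 24h_Ctrl lie within that scatter and do not establish pairing.

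Members were chosen by name, and the members, the marker and islet lists and the tests were chosen with earlier results of these data known. Every member was named, with the 3 miRs of highest Pearson r to each member detected on all 24 arrays, the miRs sharing a seed with a member, and at most 5 called miRs per comparison from the islet list. Sequences and gene neighbours came from RefSeq tables (GRCr8), by miR name.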

Additional observations from a re-analysis of the deposited data

Results flagged for a closer look

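The cytokine effect on miR-7a-2-3p differed between 24 h and 6 h when the spots were pooled, which drew attention to it. The difference of the effects was −0.30 on the log2 scale, with limma adjusted p = 0.0402 for pooled spots and 0.389 for array means. It was 0.36 without normalization between arrays, where the median of the 117 detected miRs was 0.69.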

How the results depend on the processing

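Under the 18 settings other than leaving out an array, the 24h_Giv_Cyt vs 24h_Cyt log2FC of miR-7a-2-3p kept its sign in 18 (0.23 to 0.75, adjusted p 6.71e-06 to 1) and its 24h_Cyt vs 24h_Ctrl log2FC in 17. Array brightness and slide, which differ between the 24 h groups, and the brightest miR-7a-5p spots, which normalization holds at a fixed value, limit these comparisons, and values near background limit the 3 dim members. With the total signal, most of the residual variances were 0, so its p-values are unreliable. The 31 calls over all miRs in 24h_Cyt vs 24h_Ctrl became 48 with pooled spots, 87 or 50 with the processed or total signal scaled over detected miRs, 173 without normalization between arrays, 1 with slide as a fixed block, 3 without slide 1, 3 with brightness as a covariate, and 14 (without 24h_Ctrl replicate 2) to 44 (without 6h_Giv_Ctrl replicate 1) when 1 array was left out. The causes of the differences between settings were not tested.

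Without normalization between arrays the values turned in 24h_Cyt vs 24h_Ctrl to 0.65 for miR-375-3p and 0.58 for miR-7a-2-3p, and miR-7a-5p was called at 1.34, with 5 members and 173 of 758 miRs called and a median of 0.83 over the 117 detected miRs. In 24h_Giv_Cyt vs 24h_Giv_Ctrl they were 0.16 for miR-375-3p, 0.47 for miR-7a-5p and 0.55, with a call, for miR-7a-2-3p, with 4 members and 323 of 758 miRs called and a median of 0.43. In 24h_Cyt vs 6h_Cyt they were 0.57, 0.96 and 0.29, with 2 members and 122 of 758 miRs called and a median of 0.69. miR-375-3p was at −0.43 in 24h_Giv_Cyt vs 24h_Cyt (median −0.29) and 0.057 in 24h_Giv_Ctrl vs 24h_Ctrl (median 0.12). The interaction of miR-7a-2-3p with time was 0.36, with 1 member and 51 of 758 miRs called and a median of 0.69, and that with Givinostat at 24 h −0.031 (median −0.44). These counts and signs stand beside shifts of the whole array. The passenger minus guide change in 24h_Cyt vs 24h_Ctrl was −0.76, on signals that include background.

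With the processed signal scaled over detected miRs, miR-375-3p was called at −0.54 in 24h_Cyt vs 24h_Ctrl (1 member called), and miR-7a-5p was at 0.048 in 24h_Giv_Cyt vs 24h_Cyt, −0.19 in 6h_Giv_Ctrl vs 6h_Ctrl and 0.037 in 24h_Giv_Cyt vs 24h_Giv_Ctrl. With the total signal the same 4 values were −0.56 (1 member called), 0.061, −0.23 and 0.027, and miR-7a-5p was at −0.0088 in 24h_Cyt vs 6h_Cyt. With the processed signal scaled over all miRs, miR-7a-5p was at −0.011 in 24h_Cyt vs 24h_Ctrl, −0.22 in 6h_Giv_Ctrl vs 6h_Ctrl and −0.012 in 24h_Cyt vs 6h_Cyt. There miR-375-3p was at −0.27 in 24h_Giv_Cyt vs 24h_Cyt, and miR-7a-2-3p was called at −0.41 in 24h_Cyt vs 24h_Ctrl and at 0.34 in 24h_Giv_Ctrl vs 24h_Ctrl (1 member called in each, against 32 and 2 of 758 miRs) and was at −0.30 in 24h_Giv_Cyt vs 24h_Giv_Ctrl.

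With the median of the spots, which equals the deposited log2 table, miR-7a-5p was called at 0.33 in 24h_Cyt vs 24h_Ctrl (1 member and 26 of 758 miRs called) and miR-375-3p was at 0.018 in 24h_Giv_Ctrl vs 24h_Ctrl. Without outlier spots miR-7a-5p was at 0.071 in 24h_Giv_Cyt vs 24h_Cyt and miR-375-3p at 0.070 in 24h_Giv_Ctrl vs 24h_Ctrl. In 24h_Giv_Cyt vs 24h_Cyt miR-375-3p was at −0.10 with slide as a fixed block, −0.051 without slide 1 and −0.067 with brightness as a covariate, which put it at 0.046 in 24h_Giv_Ctrl vs 24h_Ctrl.
With pooled spots miR-7a-2-3p was called at −0.22, 0.37 and −0.33 in the comparisons 24h_Cyt vs 24h_Ctrl, 24h_Giv_Cyt vs 24h_Cyt and 24h_Cyt vs 6h_Cyt, and −0.30 for time by cytokines, as the 1 member in each. With the compared groups alone, miR-7a-2-3p (−0.22) and miR-7a-5p (0.24) were called in 24h_Cyt vs 24h_Ctrl, 2 members against 45 of 758 miRs, and 1 member, miR-7a-2-3p (−0.33), for 24h_Cyt vs 6h_Cyt, against 7 of 758.

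For each comparison, 1 of 8 arrays was left out at a time, namely its own arrays, 6h_Giv_Ctrl replicate 1 and 6h_Giv_Cyt replicate 3. Over these, miR-7a-2-3p ranged from 0.29 to 0.43 in 24h_Giv_Cyt vs 24h_Cyt (0 to 1 members called), from −0.37 to −0.29 in 24h_Cyt vs 6h_Cyt (0 to 1 called), and from −0.042 to 0.10 in 24h_Giv_Cyt vs 24h_Giv_Ctrl. miR-375-3p ranged from −0.039 to 0.16 in 24h_Giv_Cyt vs 24h_Cyt and from −0.11 to 0.067 in 24h_Giv_Ctrl vs 24h_Ctrl. miR-7a-5p ranged from −0.19 to 0.027 in 24h_Giv_Cyt vs 24h_Cyt and from −0.16 to 0.060 in 24h_Giv_Cyt vs 24h_Giv_Ctrl. With the replicate block, the 24h_Cyt vs 24h_Ctrl log2FC were unchanged at −0.30 for miR-375-3p (limma adjusted p = 0.125), 0.24 for miR-7a-5p (0.257) and −0.22 for miR-7a-2-3p (0.128), and the block changed no member's call. With 1 or with all 16 spots required, miR-375-5p was well above background on 21 or 1 arrays, miR-7a-1-3p on 23 or 0 and miR-7b on 22 or 0.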
